A study of Drosophila melanogaster with 4 samples.

Results

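The bithorax complex of Drosophila melanogaster lies on chromosome arm 3R and holds the Hox genes Ubx, abd-A and Abd-B. The regions described here are the clusters of CP190 enrichment whose midpoint falls between 12480000 and 12815000 on 3R (FlyBase release 5). This interval of 335 kb is defined by its coordinates and not by any measured value. It held 29 of the 7960 clusters of the authors' combined list, 19 of the 4461 clusters of ChIP replicate 1 and 18 of the 4900 clusters of ChIP replicate 2. On 3R outside it lay 1841, 1033 and 1165 clusters in the same order.

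The samples were whole wild-type embryos of strain Oregon-R (Oregon-R-modENCODE), labelled 14 to 16 h old, while the protocol states only that embryos were not past 16 h. All were of 1 genotype, stage and condition, and chromatin was crosslinked with 1.8% formaldehyde. CP190 was precipitated with the antibody CP190-HB in 2 ChIP replicates, and 2 input chromatin samples entered only through the authors' own calls. Because whole embryos were used, every value is an average over segments that do and do not express each of these genes. Whether the ChIP samples stem from different embryo collections is not stated in the labels.

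Ubx, abd-A and Abd-B encode homeodomain transcription factors that give the posterior thorax and the abdomen their segment identities. Their order along the chromosome follows the order of the body segments that they pattern. Each gene is driven by long stretches of regulatory DNA that are divided into domains, 1 for each parasegment, and chromatin boundary elements keep neighbouring domains apart. The boundary elements known as Fub, Mcp, Fab-6, Fab-7 and Fab-8 are textbook examples. The cofactor CP190 carries zinc fingers and a BTB domain, and it is brought to chromatin by insulator proteins that bind DNA themselves, such as CTCF and Su(Hw). The positions of the named boundary elements on release 5 were not used here, so no cluster is assigned to one of them.

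The gene spans used here are rounded to 1 kb. Ubx was taken as 12482000 to 12560000 (78 kb), abd-A as 12633000 to 12656000 (23 kb) and Abd-B as 12753000 to 12798000 (45 kb). These spans differ from the gene lengths in a RefSeq table of release 6 by 196, 164 and 25 bp. All 3 genes are transcribed towards lower coordinates, so that the 5′ end of each is its higher coordinate. By gene order in that table, the space between Ubx and abd-A holds the long noncoding RNA bxd and the sugar transporter gene Glut3, among others. The space between abd-A and Abd-B holds the long noncoding RNAs iab4 and iab8, the microRNA genes mir-iab-4 and mir-iab-8, and MSAmiP. Clusters are described in this order, from Ubx to Abd-B.

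Each cluster carries 1 deposited value with no unit in the file, treated as the log2 of an enrichment ratio and called its log2 score. It describes and ranks clusters within a list only. No read counts were used, so the depth behind a cluster is unknown and a single log2 score has no interval. Median log2 scores over the whole lists were 0.59 in replicate 1, 0.62 in replicate 2 and 0.41 in the combined list.

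The strongest CP190 cluster of the complex stood alone between Ubx and abd-A. It lay at 12622908 to 12625793, about 7.21 kb beyond the 3′ end of abd-A, with a log2 score of 2.59 in replicate 1, 3.01 in replicate 2 and 2.76 in the combined list. It ranked 8, 5 and 23 over the whole lists, and 2, 1 and 3 among the clusters of 3R. No other cluster of the complex came near it. The next highest had log2 scores of 1.59, 1.77 and 1.58 in the same order, which is lower by 1.00, 1.24 and 1.17 on the log2 scale, or by a factor of 2.00, 2.36 and 2.25 in the enrichment ratio.

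That cluster was also the most isolated of the complex in the combined list. On its lower side 31858 bp, and on its higher side 29146 bp, held no combined cluster, and these were the longest 2 gaps of the complex in that list. On 3R, 43 of 1868 combined clusters with a neighbour on either side (2.30%) had gaps at least that long on both sides. Of the 177 such clusters in the highest 10% of the combined list by log2 score, 6 did. The gaps around it were slightly longer in the replicates, 32055 and 29418 bp in replicate 1 and 31914 and 29173 bp in replicate 2. In those sparser lists, 7.90% and 5.93% of 3R clusters were as isolated. In replicate 1 it was not the most isolated of the complex, as a cluster inside Ubx at 12527609 to 12529714 had gaps of 44397 and 43713 bp.

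**Figure D1:**
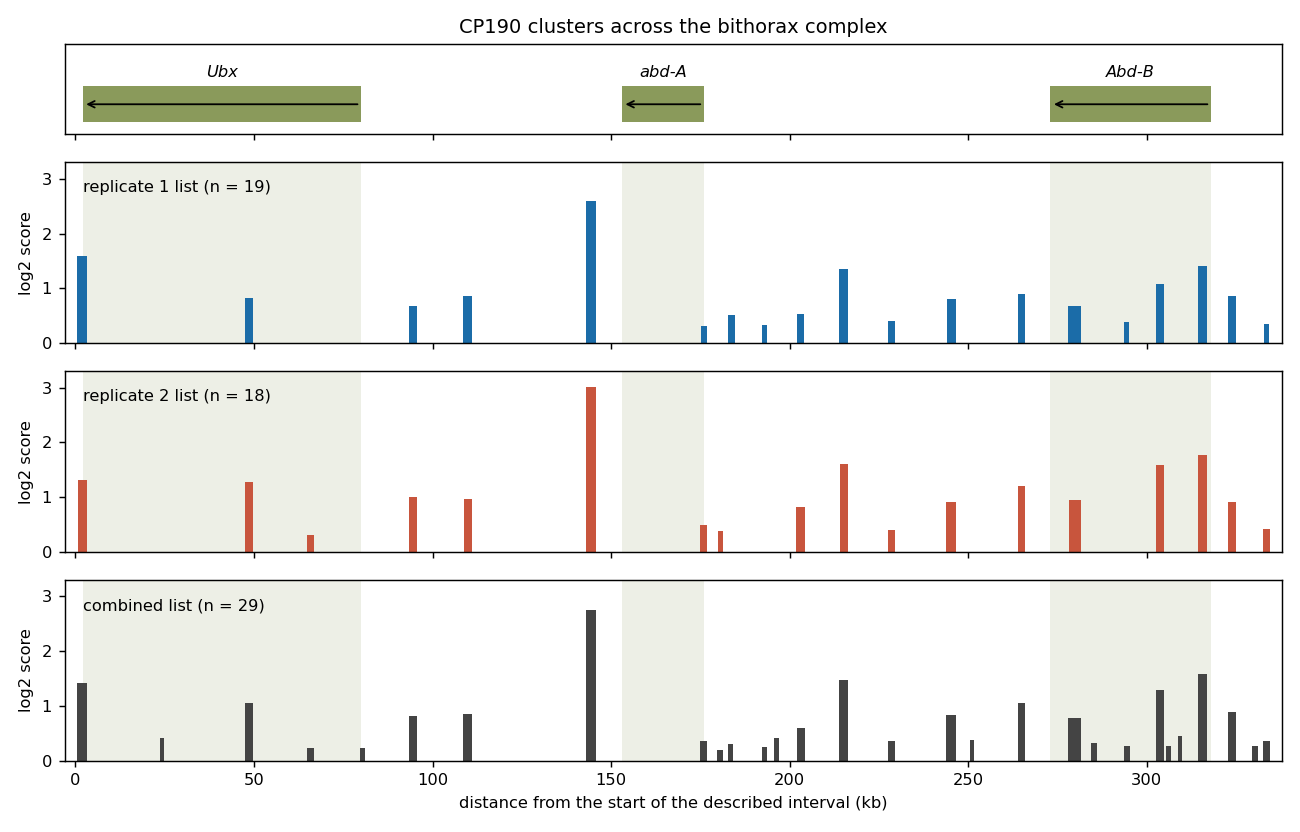
CP190 clusters across the bithorax complex, with distance from the start of the 335 kb interval (kb) on the horizontal axis and the log2 score of each cluster on the vertical axis, for replicate 1, replicate 2 and the combined list. Bars are as wide as the clusters, shaded areas are the gene spans and arrows give the direction of transcription. The tallest bar in all 3 panels is the cluster between Ubx and abd-A, and small bars are packed between abd-A and the far end of Abd-B in the combined list.

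Ubx, which specifies the third thoracic and first abdominal segments, held fewer CP190 clusters away from its ends than the median 3R interval of its length. The midpoints of 3 combined clusters, 1 cluster of replicate 1 and 2 of replicate 2 fell inside it. Intervals of 78 kb on the rest of 3R had a median of 5, 3 and 3 clusters, and 295 of 353 such intervals held as many combined clusters as Ubx or more. As few or fewer were found in 95 (26.9%), 88 (24.9%) and 127 (36.0%) of them in the same order, so Ubx was not unusually sparse. With the clusters that cover its ends counted too, Ubx had 5 combined clusters. The median for 3R intervals counts midpoints only, so this larger count cannot be set against it. Of the 3 combined clusters 1 was found in both replicates, as were 46.5% of the whole combined list. It lay at 12527580 to 12529806, with log2 scores of 0.82 in replicate 1, 1.28 in replicate 2 and 1.05 combined. It was in the highest 10% of the list by log2 score in replicate 2, with rank 472, and in the combined list, with rank 740, but not in replicate 1, where it ranked 1125.

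The other clusters inside Ubx were weak. One at 12544821 to 12546738 was found in replicate 2 (0.31) and in the combined list (0.24), and one of 1014 bp at 12503676 to 12504689 was in the combined list alone (0.41). Between the cluster at the 3′ end of Ubx and that at 12527580, both replicates had a gap without clusters of 44397 and 44462 bp. These were the longest gaps of the complex in each replicate list, and 14.9% and 12.4% of 3R gaps were as long or longer.

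The ends of Ubx differed from each other. Its 3′ end was covered by a strong cluster at 12480552 to 12483211, with log2 scores of 1.59 in replicate 1, 1.31 in replicate 2 and 1.42 combined. Its midpoint lies just outside the Ubx span, and it was the second strongest cluster of the complex in replicate 1 but the fifth in replicate 2. At the 5′ end, where the gene's transcription starts, neither replicate had a cluster. The nearest were 13.4 kb away in replicate 1 and 13.3 kb away in replicate 2. In the combined list alone, a cluster at 12559686 to 12560991 covered this end, with a log2 score of 0.23 and rank 7642 of 7960. As gene ends are rounded to 1 kb, a distance below 1 kb has no meaning here.

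The space between Ubx and abd-A, which holds the regulatory DNA upstream of Ubx, had 4 combined clusters in 73 kb against a median of 5 in 3R intervals of that length. The replicates had 3 clusters each, equal to the median of 3 in both lists. Besides the strongest cluster of the complex, they were the pair at 12573407 to 12575573 and at 12588593 to 12591049. The first had log2 scores of 0.68, 1.00 and 0.82 and the second had 0.86, 0.97 and 0.85 in replicate 1, replicate 2 and the combined list. Both stood above the median of their lists, and neither was in the highest 10% of any list.

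In abd-A, which specifies anterior and middle abdominal segments, CP190 was called at the 5′ end and nowhere else. The cluster at 12654940 to 12656921 covered that end in all 3 lists, with log2 scores of 0.32, 0.49 and 0.35. These are low values, below the median of each list and at rank 5468 of 7960 in the combined list. A single cluster is also what a 3R interval of 23 kb typically held, with a median of 1 in every list. The rest of the gene, and the sequence beyond it as far as the strongest cluster, was free of clusters in all 3 lists.

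The 97 kb between abd-A and Abd-B, which hold the regulatory domains of the more posterior abdominal segments, formed the longest segment and had the largest number of clusters. There were 10 combined clusters, 7 in replicate 1 and 6 in replicate 2, against medians of 7, 3 and 4 in 3R intervals of that length. As many or more were found in 38, 25 and 70 of 283 such intervals. This space was therefore in the upper part of the range on 3R, most clearly in replicate 1 (8.83% of intervals) and less so in replicate 2 (24.7%).

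Of those 10 clusters, 5 were found in both replicates. The first of them, at 12681927 to 12684389, had log2 scores of 0.54 in replicate 1, 0.82 in replicate 2 and 0.61 combined. The second, at 12693895 to 12696320, was the strongest between abd-A and Abd-B, with 1.35, 1.60 and 1.48 and rank 269 in the combined list. It was in the highest 10% of all 3 lists. The third, at 12707449 to 12709453, was weak in every list, with 0.41, 0.39 and 0.37. The fourth, at 12723878 to 12726661, had 0.81, 0.90 and 0.83. The fifth, at 12743872 to 12746032, had 0.89, 1.20 and 1.05 and was the last before the 3′ end of Abd-B. In both replicates the second was the strongest and the third the weakest of the 5.

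The remaining 5 had combined log2 scores of 0.42 or less, and all but the last of them lay in the part next to abd-A. One at 12659596 to 12661474 was found in replicate 2 but not in replicate 1, with log2 scores of 0.39 there and 0.20 combined. A pair at 12662828 to 12664118 and at 12672388 to 12673706 was found in replicate 1 but not in replicate 2, with 0.51 and 0.33 there and 0.30 and 0.25 combined. Those at 12675488 to 12676990 and at 12730418 to 12731745 were in the combined list alone, with 0.42, just above the list's median, and 0.39.

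Abd-B, which specifies the most posterior abdominal segments, was the densest of the 3 genes. Its 45 kb held 7 combined clusters, 4 of replicate 1 and 3 of replicate 2, against medians of 3, 2 and 2 in 3R intervals of that length. As many or more combined clusters were found in 22 of 612 intervals (3.59%). For the 4 clusters of replicate 1 the share was larger, at 11.4%, and for the 3 of replicate 2 it was 32.0%. The high place of Abd-B by number thus rests on the combined list, in which 3 of its 7 clusters were absent from both replicates, as were 32.6% of the whole list. Clusters covered 32.2% of the gene in the combined list, 22.1% in replicate 1 and 18.5% in replicate 2. The medians for 3R intervals of that length were 12.1%, 7.28% and 8.44%, and as much or more was covered in 24, 17 and 79 of the 612.

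Each replicate had 3 clusters in Abd-B in common with the other. The one nearest to the 5′ end, at 12794364 to 12796909, was the second strongest of the complex in replicate 2 and in the combined list, with log2 scores of 1.41 in replicate 1, 1.77 in replicate 2 and 1.58 combined. It ended 1.09 kb short of the gene's outer 5′ end in the combined list. Abd-B has several alternative promoters, and which of them lies nearest was not analysed here. The next, at 12782519 to 12784925, had 1.08, 1.58 and 1.29. It was 0.50 higher in replicate 2, the largest raw difference among the 16 pairs of the complex, whose mean was 0.21. As the lists were scored separately, this difference includes the offset between them. The third, at 12758033 to 12761650 near the 3′ end, was the longest cluster of the complex in every list, with 3745 bp (replicate 1), 3424 bp (replicate 2) and 3618 bp (combined). Its log2 scores were 0.68, 0.96 and 0.79.

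The other clusters of Abd-B had combined log2 scores of 0.45 or less. One at 12773514 to 12775423 was found in replicate 1 but not in replicate 2, with log2 scores of 0.38 there and 0.28 combined. The combined list alone held those at 12764451 to 12765942 (0.33), 12785425 to 12786845 (0.26) and 12788813 to 12789888 (0.45), the last of which was above the list's median. The second of these began 499 bp after the end of a strong neighbour, the shortest gap of the complex.

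Beyond the 5′ end of Abd-B, 17 kb held 3 combined clusters and 2 of each replicate. In the combined list, replicate 1 and replicate 2, 3R intervals of that length had medians of 1, 0 and 1. As many or more were found in 173, 230 and 278 of 1621 such intervals. The cluster at 12802732 to 12804923 had log2 scores of 0.87, 0.91 and 0.89 in replicate 1, replicate 2 and the combined list, and that at 12812590 to 12814587 had 0.36, 0.42 and 0.35. The third, at 12809448 to 12811095, was in the combined list alone (0.27). The interval has fixed edges, and the clusters just outside them were those at 12478181 to 12479919 (0.39) and 12821564 to 12822574 (0.32), both in the combined list alone. The nearest replicate clusters beyond the lower edge lay at 12449158 to 12451884 in replicate 1 (1.77) and at 12449293 to 12451901 in replicate 2 (1.80).

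**Figure D2:**
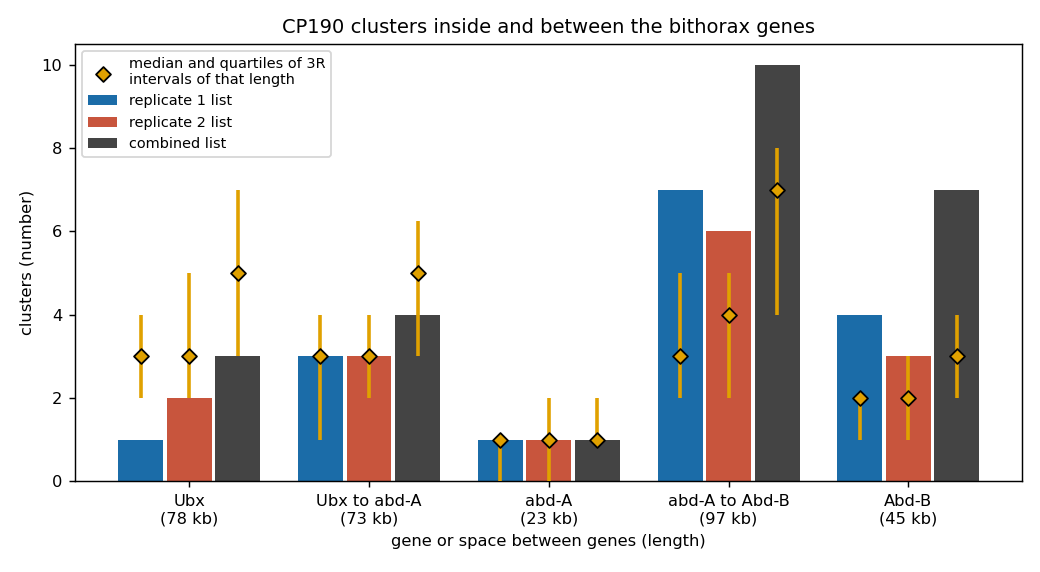
Number of CP190 clusters (vertical axis) with their midpoint in each gene or space between genes (horizontal axis, with its length in kb), as bars for replicate 1, replicate 2 and the combined list. Diamonds and lines give the median and quartiles over intervals of the same length on the rest of 3R. Ubx lies below the diamonds in all 3 lists, and the space from abd-A to Abd-B and Abd-B itself lie above them. Counting clusters that cover its ends, Ubx has 5 in the combined list, but the diamonds count midpoints only.

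CP190 clusters were placed inside and between the genes at similar densities. In the combined list, 11 clusters fell inside the genes (146 kb, 75.3 per Mb) and 14 between them (170 kb, 82.4 per Mb). In the replicates the densities were 41.1 and 58.8 per Mb in replicate 1, and 41.1 and 52.9 per Mb in replicate 2. With these spans the space between genes was the denser in every list, by a factor below 1.5. In the combined list the order turned when gene spans were widened by 2 kb on each side. Densities were then 82.3 per Mb inside and 80.2 per Mb between, so in that list the order rests on where the gene ends are set. The replicate lists were not recounted with widened spans. A larger contrast lay along the complex, seen only after the values were known. On the Ubx side of the 5′ end of abd-A, 176 kb held 9 combined clusters (51.1 per Mb), 6 of replicate 1 and 7 of replicate 2. On the Abd-B side, 159 kb held 20 (126 per Mb), 13 and 11. The contrast was smaller for combined clusters found in both replicates, with 6 of 9 on the Ubx side and 10 of 20 on the Abd-B side. Strong clusters did not follow this division, as 3 of the 7 combined clusters in the highest 10% by log2 score lay on the Ubx side and 4 on the Abd-B side.

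The replicates agreed closely on which places in the complex carry CP190. Of its clusters, 16 of 19 in replicate 1 overlapped one of replicate 2 (84.2%, exact 95% interval 60.4 to 96.6%), and 84.7% of the whole replicate 1 list did. In replicate 2 it was 16 of 18 (88.9%, 65.3 to 98.6%), against 76.5% of its whole list. In the combined list 16 of 29 clusters overlapped both replicates (55.2%, 35.7 to 73.6%), against 46.5% of the whole list. All 3 whole-list shares lie inside the intervals, and the 3 comparisons rest on the same 16 places. Those intervals cover counting error over clusters of 1 locus only. They therefore do not test whether the complex differs from the whole lists.

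Every cluster of either replicate in the complex was taken up by the combined list, as were 97.8% of the whole replicate 1 list and 99% of the whole replicate 2 list. Of the 29 combined clusters, 3 were found in replicate 1 only (10.3%, against 7.22% of the whole list) and 2 in replicate 2 only (6.90%, against 13.6%). A further 8 were found in neither (27.6%, exact 95% interval 12.7 to 47.2%, against 32.6% of the whole list). For the 16 with support from both replicates the log2 scores had a median of 0.87, and lengths ran from 1982 to 3618 bp. The 8 found in neither had log2 scores from 0.23 to 0.45 and lengths from 1014 to 1648 bp, so the ranges of length did not overlap in the complex. On the rest of 3R the same classes did overlap in length, with a lowest value of 1548 bp for the former and a highest of 3407 bp for the latter. Of the combined clusters in the complex, 15 had a log2 score above the list's median, and 13 of these were found in both replicates (86.7%, against 77.1% of all combined clusters above the median).

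Within the 16 clusters found in both replicates, the positions matched to within a fraction of a cluster. The midpoints differed by a median of 21 bp between replicates and by at most 264.5 bp, the latter at the long cluster near the 3′ end of Abd-B. The sequence common to both made up a median of 93.8% of the sequence covered by either, with a range of 77.6 to 99.1%. On the rest of 3R the corresponding medians over 852 pairs were 55.5 bp and 93.0%.

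The order of strength was also shared. Over the 16 pairs, log2 scores had a Spearman correlation of 0.900 and a Pearson correlation of 0.950, as a description across clusters that share their libraries. On the rest of 3R the values over 852 pairs were 0.836 and 0.921. Replicate 2 had the higher log2 score in 14 of 16 pairs, with a mean difference of 0.21 ± 0.20 (SD, n = 16 pairs). On the rest of 3R it did so in 73.2% of pairs, with a mean difference of 0.10 ± 0.16 (SD, n = 852 pairs). The lists were scored separately, so the offset itself has no reading. The exceptions were the cluster over the 3′ end of Ubx, which was lower by 0.29 in replicate 2, and the weak one at 12707449, which was lower by 0.02.

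**Figure D3:**
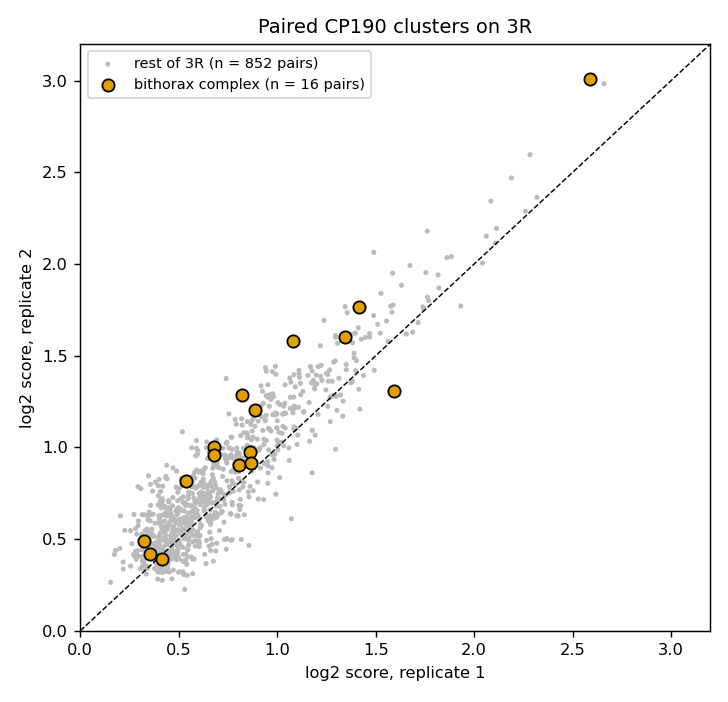
Log2 score in replicate 1 (horizontal axis) against replicate 2 (vertical axis) for one-to-one overlapping clusters on 3R, with the 16 pairs of the bithorax complex in yellow and the 852 pairs on the rest of 3R in grey. The dashed line marks equal values. Of the 16 pairs, 14 lie above the line, and the cluster over the 3′ end of Ubx lies farthest below it.

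The complex as a whole had more CP190 clusters than most stretches of 3R of its length. Against 82 adjoining intervals of 335 kb on the rest of 3R, the 29 combined clusters compared with a median of 22 and a range of 11 to 38, and 7 of the intervals (8.54%) held at least as many. In replicate 1 its 19 clusters compared with a median of 12, and 4 intervals held at least as many (4.88%). In replicate 2 its 18 clusters compared with a median of 14, and 13 intervals held at least as many (15.9%). The adjoining 335 kb on the lower side held 22, 11 and 12 clusters in the combined list, replicate 1 and replicate 2. On the higher side there were 22, 12 and 11, so both neighbours were sparser than the complex in every list.

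Intervals of 1 chromosome arm are not independent and differ in gene content, which was not measured on release 5, so the rank is a description with no test. By this measure the complex was dense without being the densest, since 6 intervals held more combined clusters, 4 held more clusters of replicate 1 and 11 held more of replicate 2. The share of sequence covered gave a similar place. Clusters covered 17.3% of the complex in the combined list, 12.5% in replicate 1 and 12.3% in replicate 2, against medians of 13.6%, 7.72% and 9.38%. In 10, 5 and 12 of the 82 intervals the share was as large or larger.

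**Figure D4:**
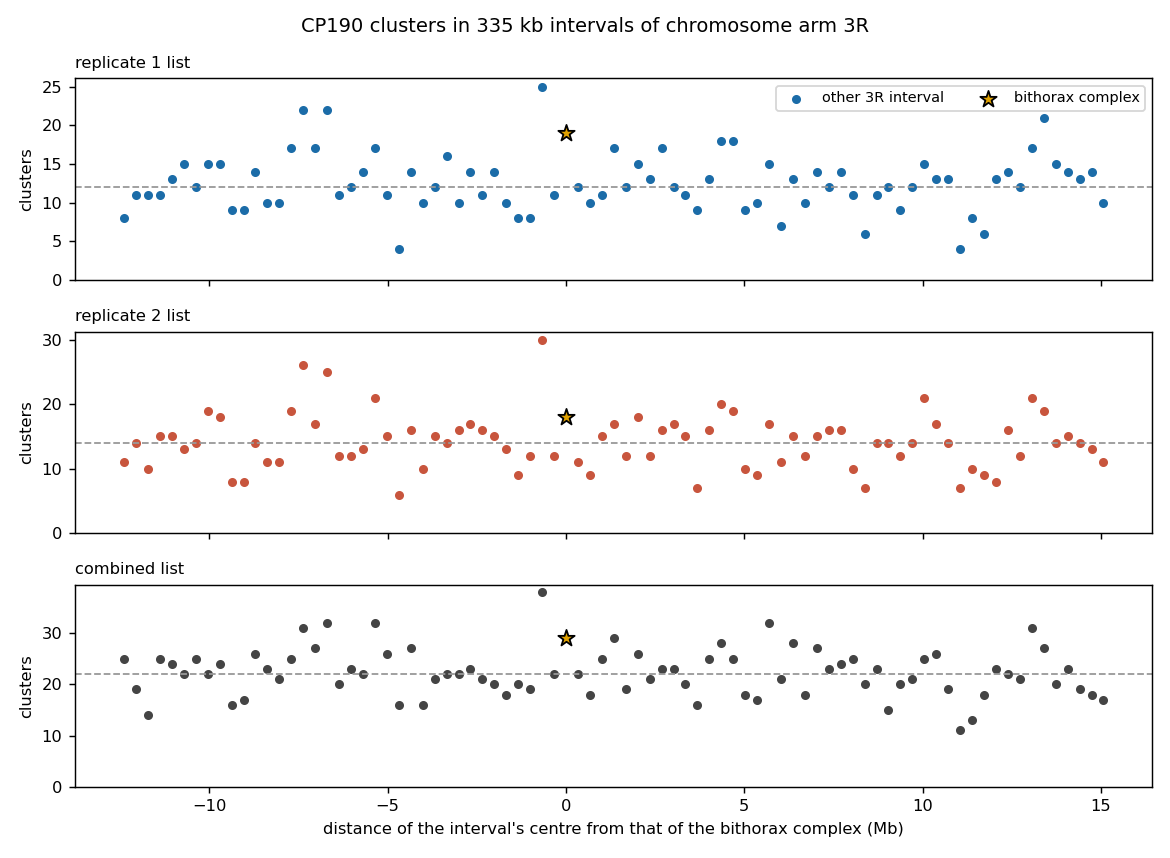
Number of CP190 clusters (vertical axis) in adjoining 335 kb intervals of 3R, by the distance of the interval's centre from that of the bithorax complex (horizontal axis, Mb), for replicate 1, replicate 2 and the combined list. The star is the bithorax complex, points are the 82 other intervals and the dashed line is their median. The star lies above the line in all 3 lists, with 7 points at or above it in the combined list, 4 in replicate 1 and 13 in replicate 2.

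Strong clusters were more frequent in the complex than in the lists as wholes, a comparison chosen after the values had been seen. In the highest 10% of the combined list by log2 score lay 7 of its 29 clusters (24.1%, exact 95% interval 10.3 to 43.5%), against 10% of the list by construction. In replicate 1 it was 4 of 19 (21.1%, 6.05 to 45.6%) and in replicate 2 it was 6 of 18 (33.3%, 13.3 to 59.0%), again against 10% of each list. The interval of replicate 1 includes 10%. These intervals cover counting error over clusters of 1 locus only, and the comparison was chosen late. They therefore do not test whether the share differs from 10% in any list. Of the 82 other intervals of 3R, 3 held at least 7 such combined clusters, 4 held at least 4 of replicate 1 and 0 held 6 of replicate 2, where the highest number was 5. The adjoining 335 kb on the lower side was also rich in strong clusters. It held 5 among its 22 combined clusters, 2 in replicate 1 and 3 in replicate 2, against interval medians of 2, 1 and 1. On the higher side there were 1, 0 and 0.

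These 7 strong combined clusters were spread over the complex. They comprised the clusters over the 3′ end of Ubx, inside Ubx at 12527580, between Ubx and abd-A at 12622908, and between abd-A and Abd-B at 12693895 and 12743872. The last pair, at 12782519 and 12794364, lay in Abd-B. None was in abd-A. The median log2 score of all clusters of the complex was 0.81 in replicate 1 and 0.97 in replicate 2, against 0.57 and 0.59 on the rest of 3R. In the combined list, which holds more weak clusters, it was 0.42 against 0.39. Restricted to combined clusters found in both replicates, the medians were 0.87 for the 16 in the complex and 0.61 for 859 on the rest of 3R, and 12 of the 16 lay above the latter.

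The median length of clusters in the complex was close to that of the rest of 3R, and so was their median spacing in the combined list. Clusters of the complex had a median length of 2113 bp (replicate 1), 2278 bp (replicate 2) and 1998 bp (combined), against 2041, 2073 and 1994 bp. The median distance between neighbouring midpoints was 9423 bp in the combined list against 9500 bp on the rest of 3R. It was 13989.5 against 16477 bp in replicate 1 and 16800 against 14193 bp in replicate 2, so the lists differ in direction. Density was nevertheless higher in the complex in every list. It was 86.6 against 66.8 clusters per Mb combined, 56.7 against 37.5 in replicate 1 and 53.7 against 42.3 in replicate 2. Between neighbours among the 16 clusters found in both replicates, the median distance was 16818.5 bp, with a range of 8191 to 46811.5 bp. For the 859 such clusters on the rest of 3R the median was 19772 bp.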

How the data were processed

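CP190 ChIP-seq in 2 ChIP and 2 input samples was used as called by the authors. Per the submitters' processing notes, reads were aligned with Bowtie 0.12.7. Neither the peak caller and its thresholds nor the way replicates were joined into the combined list is stated in these sources. Per the file headers, coordinates are on FlyBase release 5. Per the labels, each ChIP replicate was called against the input of the other number. The deposited value was treated as log2. The authors' files name no unit. Powers of 2 of the values, scaled by 1 constant per list, were whole-number ratios (denominators up to 2000, relative tolerance 1e-12) for 4460 of 4461 clusters in replicate 1, 4900 of 4900 in replicate 2 and 7954 of 7960 combined. Powers of e or 10 gave this for 0.531% of clusters or fewer.

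Values were computed in Python 3.11.15 (pandas 2.3.3, NumPy 2.4.6, SciPy 1.17.1) and plotted with matplotlib 3.10.9. Clusters were placed by midpoint, and an overlap of at least 1 bp counted as found in the other list. Intervals of equal length were laid side by side outwards from both ends of the complex over 3R. Shares carry exact (Clopper-Pearson) 95% intervals. Counting and overlap were tested on simulated clusters. All 29 combined clusters are given, and those with the highest scores in each gene or space, at gene ends, longest or found in 1 list were to be given in full. The members and lists were chosen with earlier results of these data known. With 1 condition and 2 lists no test between groups exists. Read depth is unknown. Promoter sequences and motifs were not analysed here.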

Additional observations from a re-analysis of the deposited data

How the results depend on the processing

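Over 22 results, 94 alternative values were computed, of which 52 stayed within 1.5 times a count, within the exact interval of a share or within 1 SD between the replicate lists of other values, 40 moved beyond it and 2 turned direction. Of the 94, 8 were chosen after seeing the data, for the share of strong clusters, which stayed, and for the density between the genes minus that inside them. This difference was 7.01 per Mb and turned to -2.03 with spans widened by 2 kb and to -12.6 with any overlap, while it was 12.8 with clusters found in both replicates and 11.8 to 17.7 with a replicate left out. The place of the complex among 3R intervals stayed within its interval throughout, with 4.88 to 15.9% of intervals holding as many clusters and 6.10 to 16.5% as much covered sequence. To leave out a replicate, the list of the other replicate was used, which is shorter than the combined list by construction. It gave 18 to 19 clusters, 12.3 to 12.5% covered, 84.2 to 88.9% found in the other replicate, median log2 scores of 0.81 to 0.97, lengths of 2113 to 2278 bp and spacings of 13989.5 to 16800 bp. Ubx then held 1 to 2 clusters, the space from abd-A to Abd-B 6 to 7 and Abd-B 3 to 4. Intervals with as many clusters were 78.8 to 90.9% for Ubx, 50.5 to 57.4% for Ubx to abd-A, 57.7 to 61.3% for abd-A, 8.83 to 24.7% for abd-A to Abd-B and 11.4 to 32.0% for Abd-B. With combined clusters above the median score there were 15 clusters, 10.6% covered and 86.7% found in both replicates. With clusters found in both replicates there were 16, 11.6% covered, log2 scores with a median of 0.87 and lengths with a median of 2416.5 bp. Ubx then held 1, abd-A to Abd-B 5 and Abd-B 3. With gene spans widened by 2 kb Ubx held 5, and with any overlap also 5, as clusters at both its ends then count. No paired analysis was possible because each ChIP replicate is 1 list and inputs enter only through the authors' calls. Promoter motifs were not run. Unknown depth limits weak clusters by an amount not measured here.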
